A study of Mus musculus with 14 samples.

Results

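The insulin-like growth factor (IGF) axis was followed through 10 genes, of the 55359 Ensembl genes in the deposited count table. They were the ligand genes Igf1 and Igf2, the imprinted non-coding RNA gene H19, the receptor genes Igf1r and Igf2r, and the binding-protein genes Igfbp2, Igfbp3, Igfbp4, Igfbp5 and Igfbp7. Members were taken by matching the gene symbol. The set was drawn up with the differences between groups in view, so the levels and fitted differences of its members are a description. Fitted values below are not tests of the axis.

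RNA came from the cerebral cortex of both hemispheres of mice. Cerebral venous sinus thrombosis (CVST) is the blocking of the brain's venous drainage by a clot. There were 5 libraries at 7 d after CVST, 5 libraries at 2 d after CVST and 4 sham libraries. No genotype, allele or drug separates the groups in the labels, which leave out the time at which sham tissue was taken, age and sex. Samples carry a number within their group, with no statement that each is its own animal, so p-values measure the spread between these samples, which may be technical.

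Insulin-like growth factors signal through the tyrosine kinase IGF1R, and IGF2 is also bound and cleared by IGF2R, the mannose-6-phosphate receptor that carries lysosomal enzymes. Binding proteins hold most of the ligand outside cells and either store it or keep it from the receptor. Igf2 and H19 are neighbours on chromosome 7. In many tissues they share enhancers, and an imprinting control region lets the paternal copy make Igf2 and the maternal copy make H19. This need not hold in every cell type of the brain and was not tested here. In the adult brain, Igf2 is known from choroid plexus, meninges and vessels, and Igf1 from neurons and from microglia.

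Libraries held gene counts of 14.7 to 20.8 M (M for mega), and all 10 genes passed the filter on low counts. The first principal component of log2 CPM (read counts divided by the library's TMM-scaled depth) held 33.1% of the variance. On it, replicate 2 at 7 d (-26.9) and replicate 5 at 2 d (-26.7) lay beside sham replicate 1 (-27.3). The other sham libraries lay further off, at -48.2 to -47.7. Both CVST libraries are named below as those that lay with sham. The remaining CVST libraries lay between 1.48 and 49.1. Replicate 5 at 7 d stood apart in H19 and in connective-tissue genes. Results that rest on these 3 libraries are given with and without them. Both that lay with sham were picked for that likeness, so leaving them out favours differences from sham. Calls over all genes then rose from 669 to 2146 at 2 d and from 752 to 1324 at 7 d against sham. Fits without both are descriptions and add no support to a call. Cortical neurons were present in every library, since none of 9 markers of excitatory, inhibitory or all neurons was at 0 and their summed level was 5179 to 8387 CPM at 7 d, 6423 to 8004 CPM at 2 d and 6202 to 7953 CPM in sham.

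H19 is also the host of a microRNA, whose mature strands are shown because H19 is the member with the widest spread. Sequences are from RefSeq on build GRCm38.p6, where both lie on the minus strand of chromosome 7, the 5p strand at chr7:142577112-142577133 and the 3p strand at chr7:142577078-142577099. Capitals mark the seed, bases 2 to 8. The strands have different seeds.
mmu-miR-675-5p: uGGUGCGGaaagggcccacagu
mmu-miR-675-3p: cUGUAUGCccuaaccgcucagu
The microRNA entry Mir675 had 0 counts in all 14 libraries. Because it lies within its host, reads there may be counted for H19, so this says nothing about the level of the microRNA. Values below are those of the H19 entry.

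Differences between groups are log2 fold changes with the standard error (SE) of edgeR's quasi-likelihood fit over all 14 libraries, and a gene was called at a Benjamini-Hochberg adjusted p under 0.05 over the 16918 genes tested. At 7 d against sham, Igf1, H19 and Igfbp5 were called higher and no member was called lower, where 4.44% of all genes tested were called, 3.61% higher and 0.833% lower. At 2 d against sham, Igfbp3 and Igfbp7 were called higher and none lower, where 3.95% of all genes were called, 2.98% higher and 0.969% lower. Between the times, Igf1 was called higher and Igfbp3 lower at 7 d than at 2 d, where 2.8% of all genes were called, 1.54% higher and 1.25% lower. In CPM, H19 and Igfbp5 had no overlap with sham and lay above it at 7 d (5.8% of all genes lay above and 3.87% below in this way). Igfbp3 and Igfbp7 did so at 2 d (5.65% above and 3.06% below). For H19 this rested on 13 counts in replicate 2 at 7 d against 12 counts in sham replicate 1. No member was without overlap between the times (2.28% above and 2.13% below). Calls depended on the number of libraries over all genes too. Without 1 sham library, 119 to 331 of all genes tested were called at 7 d against sham (752 with all libraries) and 76 to 277 at 2 d against sham (669 with all). Since the members were chosen on these contrasts, nothing is read from their counts. The median log2 fold change of the 10 members was 0.29 at 7 d against sham, 0.73 at 2 d against sham and 0.10 at 7 d against 2 d, beside medians of -0.01, -0.01 and 0.01 over all genes. The 2 comparisons with sham share the sham libraries.

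**Figure D1:**
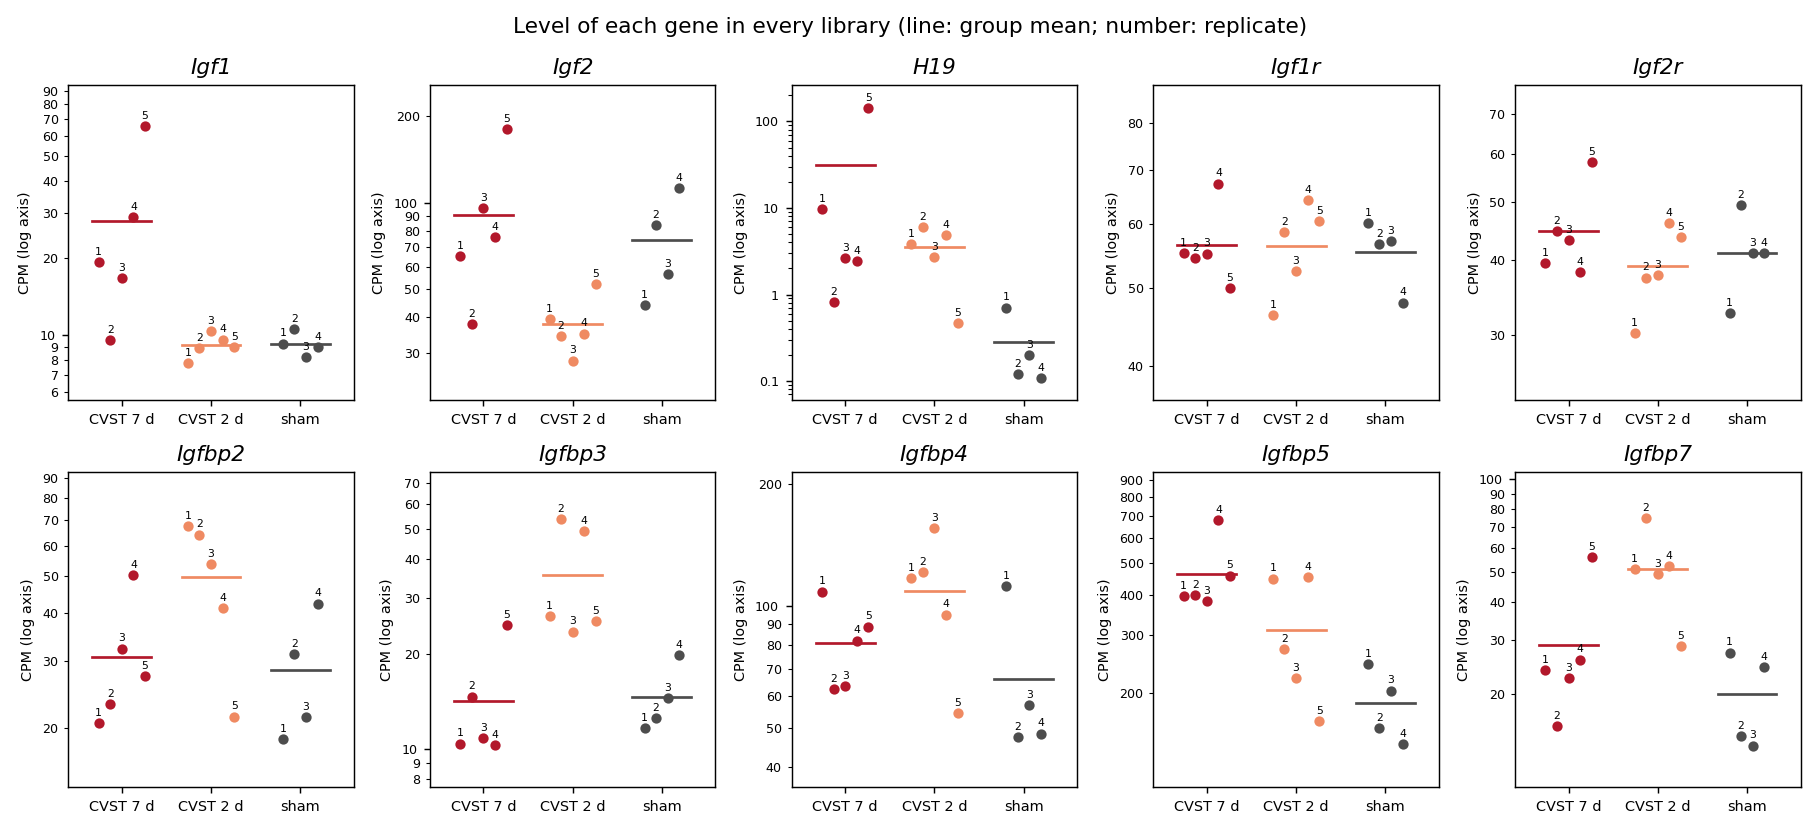
Level of each of the 10 genes in every library, in CPM on a log axis, with CVST 7 d left, CVST 2 d in the middle and sham right. Points are libraries with their replicate number, and lines are group means. Igfbp3 and Igfbp7 at 2 d and H19 and Igfbp5 at 7 d lie wholly above sham, and replicate 5 at 7 d is the highest library for Igf1, Igf2 and H19.

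Igf1, which encodes the ligand that drives growth and survival signalling through IGF1R, was called higher at 7 d and lay within the sham range in all but 1 library at 2 d. Its level was 19.3, 9.57, 16.7, 29.0 and 65.6 CPM in the libraries at 7 d, 7.78, 8.90, 10.4, 9.63 and 9.03 CPM at 2 d, and 9.29, 10.6, 8.21 and 8.999 CPM in sham. Replicate 2 at 7 d stayed inside the sham range and the other 4 lay above it. The log2 fold change at 7 d was 1.60 ± 0.41 (SE) against sham (adjusted p = 0.0396) and 1.62 ± 0.38 against 2 d (adjusted p = 0.0368). At 2 d against sham it was -0.02 ± 0.40 (adjusted p = 0.984).

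Without replicate 5 at 7 d the Igf1 difference from sham was 1.01 and still called (adjusted p = 0.0462), and that from 2 d was 1.03 (adjusted p = 0.0361). Over the 14 fits that left out 1 library, the difference was 1.01 to 1.83 against sham and 1.03 to 1.85 against 2 d. The call against sham ended when any sham library was left out (adjusted p = 0.0824 to 0.122), and without replicate 1, 3 or 4 at 2 d (0.0552, 0.0567 and 0.0507) or replicate 4 at 7 d (0.0840). The call against 2 d ended without sham replicate 2 or 3 (0.0551 and 0.0510), replicate 1, 2, 3 or 4 at 2 d (0.106, 0.0590, 0.0684 and 0.0723) or replicate 4 at 7 d (0.0831). With both libraries that lay with sham left out, Igf1 was 1.84 higher at 7 d than in sham (adjusted p = 0.0061). That choice of libraries favours such a difference.

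Markers of activated microglia and macrophages differed along with Igf1 at 7 d. Of the 9 markers, Itgax, Clec7a, Gpnmb, Spp1, Cst7, Lgals3 and Msr1 were called higher at 7 d against sham, and the summed level of the 9 was 1009, 44.9, 182, 639 and 5170 CPM in replicates 1 to 5 at 7 d. The sum was 77.1 to 718 CPM at 2 d and 25.4 to 49.4 CPM in sham, where Arg1 was at 0 in 2 libraries and Cst7 and Itgax in 1 each. Arg1 was also at 0 in 1 library at 7 d. Spp1 alone made up most of the sum in replicates 1, 4 and 5 at 7 d, at 746, 427 and 4108 CPM. It did not in replicates 2 and 3, at 9.31 and 59.2 CPM. Replicate 5 was highest and replicate 2 lowest at 7 d in both the marker sum and Igf1, whereas at 2 d the sum lay above sham in all 5 libraries while Igf1 was not called. The part of these cells in the Igf1 level was not tested, and in bulk tissue a change in cell number and a change in RNA per cell cannot be told apart.

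Deposited FPKM (fragment counts corrected for both transcript length and depth) gave a wider spread for Igf1 than CPM. Igf1 had 5.39, 1.42, 5.0, 8.17 and 27.4 FPKM at 7 d, 1.41, 1.66, 1.77, 2.40 and 1.40 FPKM at 2 d, and 1.57, 1.51, 1.38 and 1.37 FPKM in sham. FPKM per CPM of Igf1 was 0.279, 0.148, 0.299, 0.282 and 0.417 at 7 d, 0.155 to 0.249 at 2 d and 0.142 to 0.169 in sham. The same ratio of Igf1r stayed at 0.0890 to 0.100 at 7 d, 0.0903 to 0.0990 at 2 d and 0.0865 to 0.0989 in sham. FPKM per CPM of H19 also differed, at 0.486 to 0.523 at 7 d, 0.491 to 1.77 at 2 d and 1.12 to 1.98 in sham, so its FPKM differs less between groups than its CPM. The 4 libraries at 7 d with Igf1 above the sham range were those with the higher ratio. The cause was not tested.

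**Figure D2:**
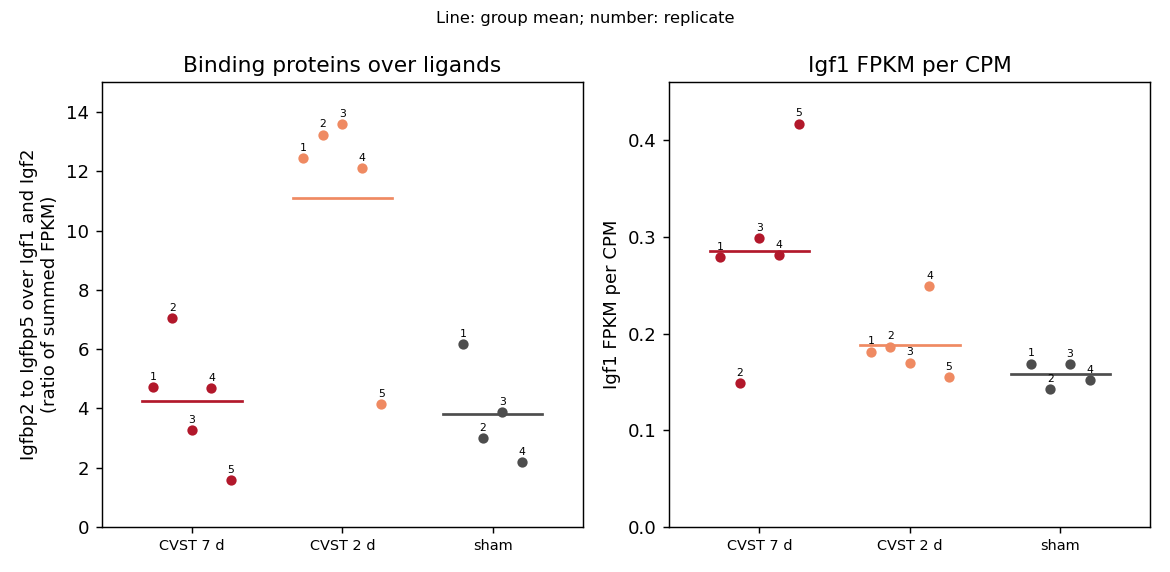
Left, summed FPKM of Igfbp2, Igfbp3, Igfbp4 and Igfbp5 over summed FPKM of Igf1 and Igf2 in each library; right, deposited FPKM of Igf1 per CPM, with CVST 7 d left, CVST 2 d in the middle and sham right. Points are libraries and lines are group means. In 4 of the 5 libraries at 2 d the left ratio is 12.1 to 13.6, and in 4 of the 5 at 7 d the right ratio is 0.279 to 0.417.

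The Igf1 window shown is the 250 bases before a RefSeq start, chr10:87860861-87861110 on the plus strand of GRCm38.p6. Those of Igfbp3, chr11:7213924-7214173, and Igfbp7, chr5:77408046-77408295, lie on the minus strand. These are the ligand gene called at 7 d and both binding-protein genes called at 2 d. Other starts that these genes may have were not looked at. Capitals mark matches on either strand to the TATA box, spelled TATAAA, to the box named CCAAT after its letters, to the GC box core, spelled GGGCGG, and to both cores of the hypoxia response element, spelled ACGTG or else GCGTG. Matches of ACGTG on opposite strands overlap where its letters form a palindrome. All 9 protein-coding members had at least 1 window in the table.
Igf1: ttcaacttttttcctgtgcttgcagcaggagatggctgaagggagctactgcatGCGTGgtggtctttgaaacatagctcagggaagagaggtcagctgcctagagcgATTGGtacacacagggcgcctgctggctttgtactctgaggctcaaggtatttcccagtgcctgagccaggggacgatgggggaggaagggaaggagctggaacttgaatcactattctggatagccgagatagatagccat
Igfbp3: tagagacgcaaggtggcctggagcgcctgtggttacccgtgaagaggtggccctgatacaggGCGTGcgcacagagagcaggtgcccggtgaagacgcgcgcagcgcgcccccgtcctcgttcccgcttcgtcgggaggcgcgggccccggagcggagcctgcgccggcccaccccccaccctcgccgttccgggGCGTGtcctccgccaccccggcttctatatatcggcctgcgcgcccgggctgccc
Igfbp7: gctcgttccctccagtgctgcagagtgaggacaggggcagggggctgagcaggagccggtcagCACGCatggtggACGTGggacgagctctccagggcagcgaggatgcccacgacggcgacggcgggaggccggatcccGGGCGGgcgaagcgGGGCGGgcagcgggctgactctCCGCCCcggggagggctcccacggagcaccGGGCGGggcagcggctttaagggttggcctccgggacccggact
The Igf1 window held 5 CpG, that of Igfbp3 32 and that of Igfbp7 26. Igfbp7 held GGGCGG at 4 places, and Igf1 and Igfbp3 held none. GCGTG was in all 3 windows, at 2 places in Igfbp3, and ACGTG was in that of Igfbp7. The CCAAT box was in that of Igf1, and TATAAA was in none of the 3. The window of Igfbp5, the binding protein called at 7 d, is not shown and held none of these motifs. Over 32851 windows of the same length, TATAAA was in 12.4%, CCAAT in 33.9%, GGGCGG in 32.7%, ACGTG in 16.6% and GCGTG in 28.2%. These matches describe letters in the window and are not binding sites.

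Igf2, the fetal ligand gene, was not called in any comparison, and its lowest levels were mostly at 2 d. Its level was 65.3, 37.8, 95.6, 75.8 and 180.4 CPM at 7 d, 39.3, 34.4, 28.2, 35.1 and 52.1 CPM at 2 d, and 44.1, 83.9, 56.5 and 112.7 CPM in sham. At 2 d, 4 of 5 libraries lay below every sham library, and replicate 5 lay inside the sham range. The log2 fold change was 0.29 ± 0.37 at 7 d against sham (adjusted p = 0.709), -0.97 ± 0.37 at 2 d against sham (adjusted p = 0.142) and 1.27 ± 0.35 at 7 d against 2 d (adjusted p = 0.0672). Without replicate 5 at 7 d the difference from sham was -0.11, so its direction rested on that library. The difference between the times was 1.42 without replicate 5 at 2 d (adjusted p = 0.0402). Calls over all genes between the times then rose from 473 to 1309. With both libraries that lay with sham left out, Igf2 was called lower at 2 d than in sham (-1.11, adjusted p = 0.0419) and higher at 7 d than at 2 d (1.62, adjusted p = 0.0167). That choice of libraries favours differences from sham, so these calls are descriptions.

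Markers of the choroid plexus, one known source of Igf2, were uneven between libraries. The summed level of its 10 markers was 15.6 to 137 CPM at 7 d, 10.7 to 526 CPM at 2 d, and 59.5, 314, 17.3 and 919 CPM in sham, with no marker at 0 in any library. Some markers lay near the floor, such as Folr1 with 1 count in replicate 1 at 7 d. Ttr made up most of the highest sums, at 793 CPM in sham replicate 4 and 446 CPM in replicate 4 at 2 d. Among sham libraries, replicate 4 had the most Igf2 and the highest sum. At 2 d the sum was highest in replicates 1 and 4 (471 and 526 CPM), where Igf2 was at 39.3 and 35.1 CPM, below every sham library. At 7 d the sum was 27.8 CPM in replicate 5, which had the most Igf2, and 137 CPM in replicate 4. The part of choroid plexus in Igf2 was not tested. Igf2os, the antisense gene at Igf2, had at most 0.745 CPM, and the library kit is not stated to keep strand, so reads of this pair cannot be told apart. The entry Mir483, inside Igf2, had 0 counts in all 14 libraries, which says nothing about the level of that microRNA.

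H19, the maternally expressed RNA that is silenced in most tissues after birth, was called higher at 7 d against sham and was very uneven. It had 138, 13, 46, 44 and 2708 counts at 7 d, 70, 129, 41, 89 and 8 counts at 2 d, and 12, 2, 4 and 2 counts in sham. In CPM these were 9.62, 0.824, 2.64, 2.46 and 142.0 at 7 d, 3.83, 6.05, 2.68, 4.90 and 0.463 at 2 d, and 0.706, 0.121, 0.2002 and 0.108 in sham. In CPM all 5 libraries at 7 d lay above the sham range, but replicate 2 did so with 13 counts against 12 in sham replicate 1. That gap is within counting error. In deposited FPKM replicate 2 at 7 d (0.40) lay below sham replicate 1 (0.79). At 2 d, 4 of 5 libraries lay above sham and replicate 5 inside it. With so few sham counts the size of any fold against sham is imprecise.

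The log2 fold change of H19 was 6.79 ± 1.67 at 7 d against sham (adjusted p = 0.0343), 3.66 ± 1.69 at 2 d against sham (adjusted p = 0.224) and 3.13 ± 1.13 at 7 d against 2 d (adjusted p = 0.134). Without replicate 5 at 7 d it was 3.75 at 7 d against sham (adjusted p = 0.0437), 3.65 at 2 d against sham (adjusted p = 0.0281) and 0.10 at 7 d against 2 d. The size of the difference at 7 d rested on replicate 5. Without it H19 was called at both times against sham. Calls over all genes then went from 669 to 968 at 2 d and from 752 to 404 at 7 d. That library was left out because H19 stood apart in it, and the 2 d and sham libraries were the same in both fits. The call at 2 d is therefore a description and adds no support. Over the 14 fits that left out 1 library it was 3.75 to 7.72 at 7 d against sham. The 7 d call ended without any sham library (adjusted p = 0.0699 to 0.116) or without replicate 3 at 2 d (0.0502). With both libraries that lay with sham left out it was 7.13 (adjusted p = 0.00991).

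Collagen genes among the fibroblast markers were also highest in replicate 5 at 7 d. The summed level of 10 markers of meningeal and vascular fibroblasts was 397, 193, 337, 225 and 3009 CPM at 7 d, 201 to 271 CPM at 2 d and 127 to 194 CPM in sham, with none at 0. Col1a1, Col1a2 and Col3a1, which encode the chains of fibrillar collagens, were called higher at 7 d against sham. In replicate 5 at 7 d, Col1a1 was at 879 CPM, Col1a2 at 994 CPM and Col3a1 at 906 CPM, most of the sum, against 7.23 to 11.8, 17.3 to 27.0 and 3.50 to 14.2 CPM in sham. In that library Lum, which encodes the collagen-binding proteoglycan lumican, was at 52.1 CPM, against 2.73 to 3.88 CPM in sham. Slc6a13 and Slc22a6, transporter genes of meningeal fibroblasts, were at 7.76 and 6.03 CPM in that library, within their sham ranges of 5.35 to 11.4 and 5.29 to 10.1 CPM. Aldh1a2, a retinoic acid synthesis gene of the meninges, was at 12.1 CPM there and 7.37 to 17.0 CPM in the other libraries at 7 d. Skeletal muscle markers summed to 7.65 to 10.5 CPM at 7 d, 8.80 to 13.6 CPM at 2 d and 7.33 to 11.0 CPM in sham, with Ckm and Tnnt3 at 0 in several libraries. The part of fibroblasts in the H19 level was not tested.

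**Figure D3:**
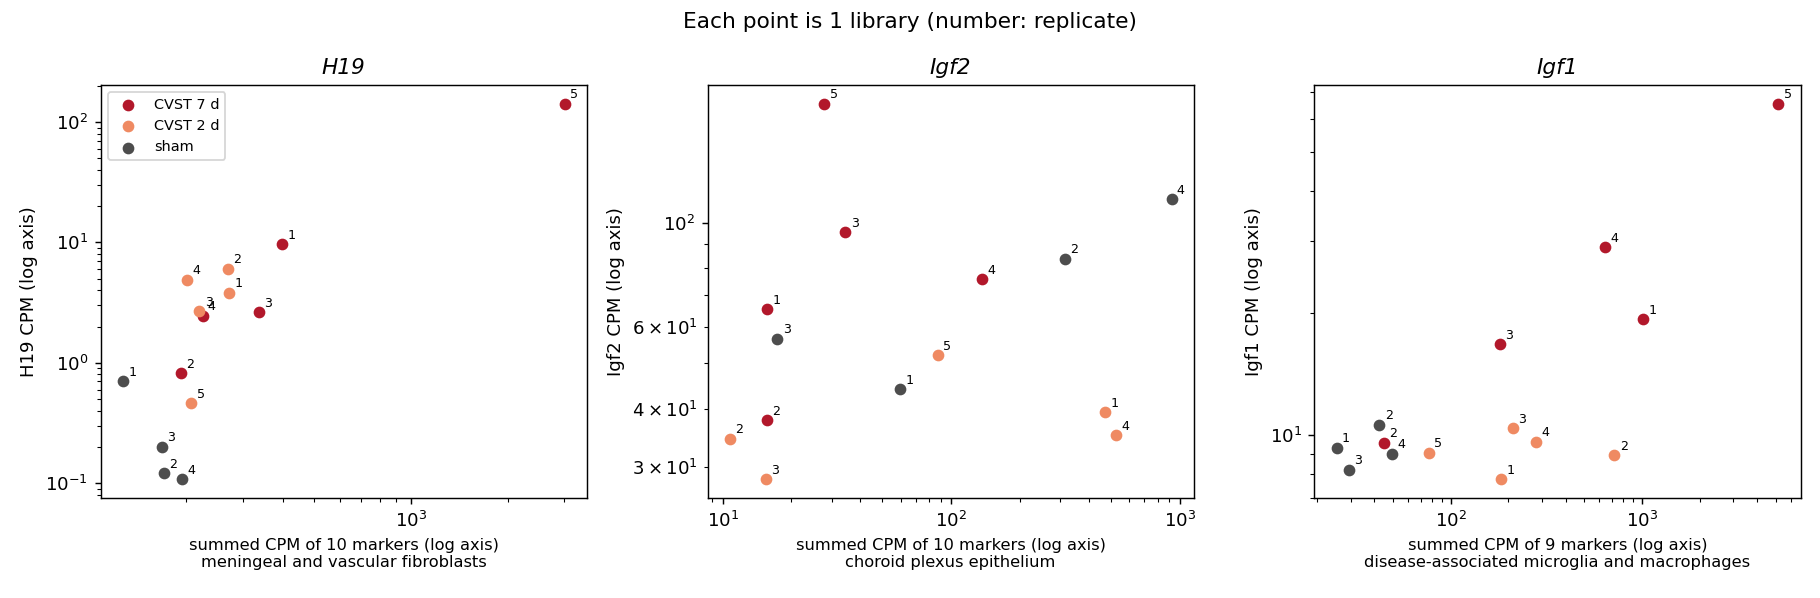
Each point is a library, numbered by replicate, with CVST 7 d in dark red, CVST 2 d in orange and sham in grey. The CPM of H19, Igf2 and Igf1 (vertical, log axis) is set against the summed CPM of fibroblast, choroid plexus and microglia or macrophage markers (horizontal, log axis), and replicate 5 at 7 d lies apart at 142.0 CPM of H19 and 3009 CPM of fibroblast markers.

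Genes along chromosome 7 around H19 were read from the same table, in RefSeq gene order. Lsp1, a leukocyte actin-binding protein gene, was at 10.7, 5.83, 5.56, 9.38 and 33.6 CPM at 7 d, 3.76 to 9.42 CPM at 2 d and 2.40 to 4.18 CPM in sham. Its highest library was also replicate 5 at 7 d. Mrpl23, a mitochondrial ribosome gene nearer to H19, was at 3.61 to 5.35 CPM at 7 d, 2.20 to 5.09 CPM at 2 d and 4.05 to 5.45 CPM in sham. Ins2, the insulin gene beyond Igf2, had at most 0.115 CPM at 7 d, 0.164 CPM at 2 d and 0.0606 CPM in sham.

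The receptors did not pass the threshold in any comparison, and their levels overlapped between groups. Igf1r was at 55.3, 54.5, 55.2, 67.4 and 49.98 CPM at 7 d, 46.3, 58.6, 52.5, 64.3 and 60.5 CPM at 2 d, and 60.1, 56.6, 57.2 and 48.0 CPM in sham. Its log2 fold change was 0.03 ± 0.11 at 7 d against sham (adjusted p = 0.924) and 0.03 ± 0.11 at 2 d against sham (adjusted p = 0.918). Igf2r was at 39.5, 44.7, 43.1, 38.1 and 58.2 CPM at 7 d, 30.2, 37.4, 37.8, 46.0 and 43.7 CPM at 2 d, and 32.6, 49.3, 41.0 and 41.1 CPM in sham. Its log2 fold change was 0.13 ± 0.15 at 7 d against sham (adjusted p = 0.690) and -0.07 ± 0.15 at 2 d against sham (adjusted p = 0.820). The standard errors of both were the smallest among the members.

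**Figure D4:**
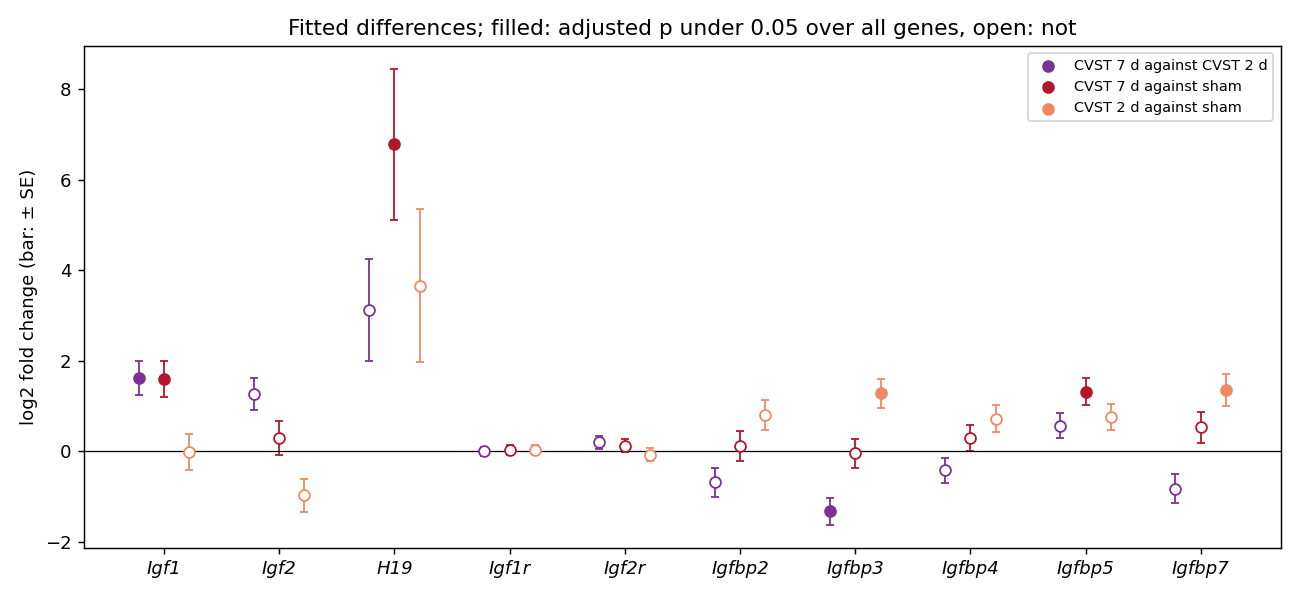
Fitted log2 fold change of each member in the 3 comparisons, with standard errors as bars, from left to right 7 d against 2 d, 7 d against sham and 2 d against sham. Filled points have an adjusted p under 0.05. Igf1, H19 and Igfbp5 are called at 7 d against sham, Igfbp3 and Igfbp7 at 2 d against sham, and both receptors lie at 0.20 or less in size in every comparison.

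Igfbp3, which encodes the main IGF carrier of the blood, was called higher at 2 d against sham and lower at 7 d than at 2 d. Its level was 10.4, 14.6, 10.8, 10.3 and 24.6 CPM at 7 d, 26.3, 53.7, 23.6, 49.1 and 25.4 CPM at 2 d, and 11.6, 12.5, 14.5 and 19.8 CPM in sham. All 5 libraries at 2 d lay above every sham library. At 7 d the other 4 libraries lay below every library at 2 d, and replicate 5 lay among them. The log2 fold change was 1.28 ± 0.32 at 2 d against sham (adjusted p = 0.0396), -1.33 ± 0.30 at 7 d against 2 d (adjusted p = 0.0316) and -0.04 ± 0.31 at 7 d against sham (adjusted p = 0.957).

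Over the 14 fits that left out 1 library, Igfbp3 was 1.09 to 1.47 at 2 d against sham and -1.63 to -1.13 between the times. The 2 d call of Igfbp3 ended without any sham library (adjusted p = 0.0687 to 0.128) or without replicate 1, 2 or 4 at 2 d (0.0600, 0.0912 and 0.0783). The call between the times ended without replicate 1, 2 or 4 at 2 d (0.0507, 0.0551 and 0.0713) or replicate 1, 2, 3 or 4 at 7 d (0.0710, 0.0516, 0.0684 and 0.0882). The difference between the times was -1.63 without replicate 5 at 7 d (adjusted p = 0.0152). With both libraries that lay with sham left out, Igfbp3 was 1.40 higher at 2 d than in sham (adjusted p = 0.0187).

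Igfbp7, which encodes a matrix protein of vessels that binds IGFs only weakly, was called higher at 2 d against sham. Its level was 24.0, 15.8, 22.6, 26.0 and 55.8 CPM at 7 d, 51.2, 74.9, 49.4, 52.2 and 28.7 CPM at 2 d, and 27.4, 14.6, 13.6 and 24.5 CPM in sham. All 5 libraries at 2 d lay above every sham library. At 7 d only replicate 5 did. The log2 fold change was 1.36 ± 0.35 at 2 d against sham (adjusted p = 0.0453), 0.53 ± 0.35 at 7 d against sham (adjusted p = 0.429) and -0.83 ± 0.32 at 7 d against 2 d (adjusted p = 0.158). The last was -1.21 without replicate 5 at 7 d (adjusted p = 0.0350).

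Over the same 14 fits Igfbp7 was 1.18 to 1.55 at 2 d against sham. The 2 d call of Igfbp7 ended without any sham library (adjusted p = 0.0593 to 0.146), any of replicates 1 to 4 at 2 d (0.0754 to 0.101), or replicate 1, 3 or 4 at 7 d (0.0598, 0.0565 and 0.0540). With both libraries that lay with sham left out the difference was 1.52 (adjusted p = 0.00789). Endothelial markers did not move as one at 2 d. Of 8 markers, Pecam1 and Cdh5, which encode adhesion proteins of endothelial junctions, were called higher at 2 d against sham, by 1.02 and 0.98 on the log2 scale. The other 6 were not called, with Cldn5 at 0.35, Ly6c1 at 0.43, Flt1 at 0.03, Kdr at 0.04, Tek at 0.10 and Slco1a4 at -0.38. The summed level of the 8 was 231 to 325 CPM at 7 d, 259 to 415 CPM at 2 d and 219 to 299 CPM in sham, with none at 0. Replicate 2 at 2 d was highest in this sum, in Igfbp3 and in Igfbp7. Replicate 4 had the lowest sum at 2 d (259 CPM), with Igfbp3 at 49.1 CPM and Igfbp7 at 52.2 CPM. Replicate 5 at 7 d had Igfbp7 at 55.8 CPM with a sum of 282 CPM. The part of endothelium in both genes was not tested.

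Igfbp5, which encodes a binding protein held in the extracellular matrix, was called higher at 7 d against sham. Its level was 396, 399, 383, 680 and 458 CPM at 7 d, 448, 272, 222, 454 and 163 CPM at 2 d, and 245, 156, 203 and 139 CPM in sham. All 5 libraries at 7 d lay above every sham library, replicate 2 included, and 3 of 5 did at 2 d. The log2 fold change was 1.32 ± 0.29 at 7 d against sham (adjusted p = 0.0232), 0.75 ± 0.29 at 2 d against sham (adjusted p = 0.151) and 0.57 ± 0.27 at 7 d against 2 d (adjusted p = 0.242). Over the 14 fits that left out 1 library it was 1.14 to 1.49 at 7 d. The 7 d call ended without sham replicate 2, 3 or 4 (0.0800, 0.0768 and 0.0856) or replicate 4 at 7 d (0.0617). Without replicate 5 at 2 d, Igfbp5 was also called at 2 d against sham (0.92, adjusted p = 0.0355). That library lay with sham, so leaving it out favours such a difference. Calls over all genes then rose from 669 to 1967.

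Igfbp2 and Igfbp4 were not called in any comparison. Igfbp2, which encodes the binding protein of cerebrospinal fluid, was at 20.6, 23.2, 32.3, 50.3 and 27.4 CPM at 7 d, 67.5, 64.1, 53.7, 41.2 and 21.5 CPM at 2 d, and 18.8, 31.3, 21.4 and 42.4 CPM in sham. At 2 d, 3 of 5 libraries lay above sham, and replicate 5 lay low among sham values. The difference at 2 d was 0.80 ± 0.34 (adjusted p = 0.184), or 1.00 without replicate 5 at 2 d (adjusted p = 0.0403). Igfbp4, which encodes a binding protein that keeps IGF from its receptor until it is cleaved, was at 108, 62.5, 63.5, 82.0 and 88.9 CPM at 7 d, 117, 121, 155, 95.1 and 54.4 CPM at 2 d, and 111.6, 47.5, 57.0 and 48.4 CPM in sham. Sham replicate 1 lay apart from the other sham libraries, among the values at 2 d. The difference of Igfbp4 at 2 d was 0.72 ± 0.30 (adjusted p = 0.180), or 0.89 without replicate 5 at 2 d (adjusted p = 0.0448). Replicate 5 at 2 d lay with sham, so leaving it out favours differences from sham. Calls over all genes then rose from 669 to 1967, so these values of Igfbp2 and Igfbp4 are descriptions.

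Levels were compared between genes in deposited FPKM, which is per length. Among sham libraries the means were 35.8 ± 13.8 for Igfbp4, 31.3 ± 7.87 for Igfbp5, 31.0 ± 11.4 for Igfbp2, 29.8 ± 12.7 for Igf2 and 22.6 ± 7.61 for Igfbp7 (SD, n = 4), and these neighbours lay within each other's spread. Lower were Igfbp3 at 6.60 ± 1.71, Igf1r at 5.17 ± 0.35 and Igf2r at 4.64 ± 0.77, then Igf1 at 1.46 ± 0.10 and H19 at 0.36 ± 0.29. At 7 d Igfbp5 stood at the top at 81.6 ± 23.7 FPKM (SD, n = 5), above Igfbp4 at 47.0 ± 11.2. At 2 d the top were Igfbp4 at 63.0 ± 23.2, Igfbp7 at 60.3 ± 19.8, Igfbp2 at 55.3 ± 20.4 and Igfbp5 at 54.7 ± 23.3, within each other's spread.

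The order changed in CPM per kilobase of GENCODE M21 exon length. In sham Igfbp5 was then at 30.9 ± 7.98, above Igfbp7 at 16.6 ± 5.74, Igfbp2 at 15.4 ± 5.80, Igfbp4 at 14.97 ± 6.93 and Igf2 at 12.98 ± 5.34 (SD, n = 4), and Igf2r at 4.403 ± 0.73 lay above Igf1r at 3.30 ± 0.31. At 2 d Igfbp5 at 51.9 ± 22.1 and Igfbp7 at 42.4 ± 13.5 lay above Igfbp2 at 26.8 ± 10.2 and Igfbp4 at 24.6 ± 8.40 (SD, n = 5). At 7 d Igfbp5 was again at the top, at 77.1 ± 20.7.

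The summed FPKM of Igfbp2, Igfbp3, Igfbp4 and Igfbp5 over that of Igf1 and Igf2 gives the amount of binding-protein RNA per ligand RNA. It was 4.73, 7.04, 3.26, 4.69 and 1.57 at 7 d, 12.5, 13.2, 13.6, 12.1 and 4.14 at 2 d, and 6.17, 2.99, 3.87 and 2.17 in sham. At 2 d, 4 of 5 libraries lay above every library of both other groups, and replicate 5 lay among them. Means were 4.26 ± 2.03 at 7 d, 11.1 ± 3.94 at 2 d (SD, n = 5 each) and 3.80 ± 1.73 in sham (SD, n = 4). It is built from members chosen on these values and has no test.

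Insulin and IGF pathway genes outside the members were read from a list of 42, of which 36 passed the filter on low counts. At 7 d against sham, 0 were called higher and 1 lower, which was Irs2, the adaptor of the insulin and IGF1 receptors. Over all genes, 3.61% were called higher and 0.833% lower. Irs2 fell to 49.6, 64.2, 52.7, 56.3 and 46.7 CPM at 7 d, against 67.8, 73.4, 89.8 and 71.9 CPM in sham, with no overlap. Of all genes tested, 3.87% lay below sham in this way at 7 d. The change of Irs2 was smaller at 2 d. The log2 fold change of Irs2 was -0.49 ± 0.13 at 7 d (adjusted p = 0.0435) and -0.30 ± 0.13 at 2 d (adjusted p = 0.196). Over the 14 fits that left out 1 library it was -0.56 to -0.40 at 7 d. The Irs2 call ended without any sham library, without replicate 2 at 2 d, or without replicate 1, 3, 4 or 5 at 7 d (adjusted p = 0.0529 to 0.157 over these 9 fits).

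At 2 d against sham, edgeR called 0 of the 36, with 3 higher and 6 lower at an unadjusted p under 0.05. DESeq2 called 2 of them and voom with sample weights 7. Over all genes edgeR called 669, DESeq2 1528 and voom 2616. Between the times edgeR called 0 of the 36, with 2 higher and 2 lower unadjusted, and voom called 1. Over all genes edgeR called 473 between the times and voom 1237. Insr, the insulin receptor gene, was 0.12 ± 0.12 at 7 d (adjusted p = 0.625) and -0.06 ± 0.12 at 2 d (adjusted p = 0.812) against sham on the log2 scale. Irs1, another adaptor, was -0.09 ± 0.20 and -0.03 ± 0.20 at these times. Grb10, an imprinted brake on both receptors, was -0.14 ± 0.24 at 7 d and -0.50 ± 0.24 at 2 d (adjusted p = 0.788 and 0.239). Igfbp6, which prefers IGF2, was 0.19 ± 0.30 at 7 d and 0.60 ± 0.30 at 2 d (adjusted p = 0.768 and 0.254). Pappa, the protease that cleaves IGFBP4, was 0.54 ± 0.51 at 7 d and 0.58 ± 0.51 at 2 d (adjusted p = 0.605 and 0.538), at a mean of 0.669 CPM at 7 d, 0.689 CPM at 2 d and 0.465 CPM in sham. The median of the 36 was -0.03 at 7 d and -0.06 at 2 d.

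Imprinted genes outside the members were read from a list of 44, of which 40 passed the filter. At 7 d against sham 0 were called higher and 3 lower, Mest, Zdbf2 and Peg10, where 3.61% of all genes were called higher and 0.833% lower. At 2 d against sham 1 was called higher, Tfpi2, and 3 lower, Zdbf2, Mest and Rian. There 2.98% of all genes were called higher and 0.969% lower. The median of the 40 was -0.20 at 7 d and -0.28 at 2 d, against -0.01 over all genes. Zdbf2, a paternally expressed zinc finger gene, had 14.2, 15.9, 13.98, 12.7 and 16.4 CPM at 7 d, 10.7, 10.1, 8.84, 15.6 and 21.02 CPM at 2 d, and 23.5, 33.3, 29.3 and 34.6 CPM in sham. Every CVST library lay below every sham library. Of all genes tested, 3.87% lay wholly below sham at 7 d and 3.06% at 2 d. The log2 fold change of Zdbf2 was -1.04 ± 0.21 at 7 d (adjusted p = 0.0170) and -1.19 ± 0.21 at 2 d (adjusted p = 0.0121). Mest, a paternally expressed hydrolase gene, was at 15.8 to 23.2 CPM at 7 d, 19.9 to 26.3 CPM at 2 d and 26.1 to 41.1 CPM in sham. Its log2 fold change was -0.70 ± 0.14 at 7 d (adjusted p = 0.0174) and -0.60 ± 0.14 at 2 d (adjusted p = 0.0345).

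Peg10, a paternally expressed gene of retrotransposon origin, had 15.3, 15.7, 12.1, 11.8 and 18.6 CPM at 7 d, against 19.6, 41.7, 20.02 and 51.4 CPM in sham, with no overlap (-1.17 ± 0.29, adjusted p = 0.0382). Of all genes tested, 3.87% lay below sham in this way at 7 d. At 2 d Peg10 had 27.7, 18.4, 20.9, 41.2 and 23.7 CPM. Sham was uneven, and replicates 2 and 4, highest in Peg10, also had the highest choroid plexus marker sums in sham (314 and 919 CPM). At 7 d replicate 4 had the highest sum (137 CPM) and the lowest Peg10. The part of uneven tissue in Peg10 was not tested. Rian, a maternally expressed non-coding RNA, was at 535 to 683 CPM at 2 d, against 776 to 833 CPM in sham (-0.35 ± 0.08, adjusted p = 0.0325). Tfpi2, an inhibitor of serine proteases, had 124 counts over the libraries at 2 d, against 1 count over those in sham. Its ratio of pooled counts, scaled to library size, was 98.9, with a 95% exact interval of 17.4 to 3938 that covers counting error only. Between the times, edgeR called 0 of the 40 imprinted genes, with 4 higher and 2 lower unadjusted, while DESeq2 called 2 and voom 1. Over all genes edgeR called 473, DESeq2 1280 and voom 1237.

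Over the 14 fits that left out 1 library, Zdbf2 was -1.14 to -0.97 at 7 d and -1.41 to -1.07 at 2 d, Mest -0.79 to -0.57 at 7 d and -0.69 to -0.47 at 2 d, Peg10 -1.35 to -0.88 at 7 d and Rian -0.38 to -0.29 at 2 d. Directions held and many calls did not. The Zdbf2 call ended without sham replicate 2 at 2 d (adjusted p = 0.0520) and without sham replicate 2, 3 or 4 at 7 d (0.0593 to 0.0653), and the Mest call at 7 d without sham replicate 2 or 4 (0.0623 and 0.0658). At 2 d the Mest call ended without sham replicate 2, 3 or 4 or replicate 1, 2, 3 or 4 at 2 d (0.0668 to 0.129), and the Rian call without any sham library or replicates 1 to 4 at 2 d (0.0544 to 0.101). The Tfpi2 call ended without any sham library, replicates 1 to 4 at 2 d or replicate 1 at 7 d (0.0592 to 0.132). The Peg10 call ended without sham replicate 2, 3 or 4, replicate 1 or 3 at 2 d, or replicate 1, 3, 4 or 5 at 7 d (0.0514 to 0.148).

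Meg3, the maternally expressed RNA of the Dlk1 locus, was 0.03 ± 0.18 at 7 d and -0.44 ± 0.18 at 2 d against sham on the log2 scale (adjusted p = 0.945 and 0.171). All 5 libraries at 2 d lay below sham, as they did for 3.06% of all genes tested. Cdkn1c, an imprinted cell cycle inhibitor near Igf2 on chromosome 7, was 0.05 ± 0.19 at 7 d and -0.49 ± 0.19 at 2 d (adjusted p = 0.912 and 0.156). Dlk1, a Notch ligand relative, was -1.54 ± 0.86 at 7 d and -1.23 ± 0.85 at 2 d (adjusted p = 0.351 and 0.433). Plagl1, an imprinted transcription factor gene, was -0.34 ± 0.25 at 7 d and -0.04 ± 0.25 at 2 d (adjusted p = 0.501 and 0.941). None of these 4 was called.

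The genes whose pattern was most like a member were ranked by Pearson's r of log2 CPM over the 14 libraries, as a description, since the libraries share the groups. For H19 they were Thbs2, Col3a1, Lsp1, Lum and Edem1, with r of 0.941 to 0.969, of 0.887 to 0.950 for deviations from the group means, and of 0.904 to 0.957 without replicate 5 at 7 d. Col3a1 and Lum are fibroblast markers and Thbs2 encodes a matrix protein. For Igf1 they included Gpr137b, Cpxm1, Hexa and Gpr137b-ps, with r of 0.930 to 0.935 and of 0.845 to 0.867 for deviations. Without replicate 5 at 7 d their r was 0.839 to 0.872. Spearman's rank correlation was only 0.503 to 0.569 for these, against 0.890 to 0.925 for the genes like H19. Hexa encodes a subunit of a lysosomal enzyme. Gpr137b-ps is a pseudogene that may share reads with Gpr137b. For Igf2 they were Tent5a, Lrrc1, Gpx3, Omd and Serpina3g, with r of 0.860 to 0.919, of 0.794 to 0.890 for deviations and of 0.766 to 0.896 without replicate 5 at 7 d. For Igfbp3 they were Hnrnpab, Notch4, Eif4a1, Txnrd1 and Mcm4, with r of 0.884 to 0.905, of 0.664 to 0.861 for deviations and of 0.884 to 0.906 without replicate 5 at 7 d. Among the members themselves, the neighbours H19 and Igf2 had r = 0.18 over the 14 libraries and -0.44 without replicate 5 at 7 d. The r of their deviations from the group means was 0.40.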

How the data were processed

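RNA-seq of mouse cerebral cortex was analysed in 14 libraries in 3 groups. Read counts per gene were deposited by the authors, with FPKM values for the same libraries. Per the submitters' processing notes, fastp, HISAT2 and DESeq2 1.16.1 were used on build mm39, with roles, counter and annotation not given in the sources used here. Per the labels' protocols, Trizol RNA went into NEBNext Ultra libraries. The 535 entries without an Ensembl gene (0.203% to 0.278% of counts) were left out.

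Counts were fitted in edgeR 4.0.16 (R 4.3.3) with TMM factors (0.962 to 1.04), filterByExpr and 3 group means, which kept 16918 genes. The quasi-likelihood test was 2-sided, adjusted by Benjamini-Hochberg across all genes tested, and checked on simulated counts. Log2 CPM used a prior count of 2. Alternatives were DESeq2 1.42.0, voom of limma 3.58.1, other scaling and filters, a replicate block and leaving out each library. The members and lists were chosen with earlier results of these data known. All members were named, with every called gene of 2 pathway lists, 10 genes picked by their place in the pathway and the 5 genes most like each of 4 members. Results of some genes under this rule are not reported here. The closest pair of libraries of a group differed by a chi-square of 7.76 per degree of freedom, so none was counted as a repeat. Sequences came from RefSeq tables of GRCm38.p6 and were matched by symbol, and no coordinates were carried between builds. Because the reads carry no molecular identifiers, copies made by PCR count as separate reads and intervals cover counting error only.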

Additional observations from a re-analysis of the deposited data

Results flagged for a closer look

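In 30 groups of 4 or 5 libraries, one for each gene and group, a library was looked for whose gap to its nearest neighbour took more of the group's range than Dixon's 95% critical value. Chance flags about 1 in 20 independent groups. The 5 libraries found are not set against that share, since the genes share libraries and were chosen with the unevenness of H19 known. H19 in replicate 5 at 7 d (142.01 CPM, gap 0.938 of the range) lay above the other 4 libraries, with Col1a1, Col1a2 and Col3a1 at 879, 994 and 906 CPM. Igfbp7 in the same library (55.8 CPM, gap 0.746) lay above the other libraries at 7 d. Igfbp5 in replicate 4 at 7 d (680 CPM, gap 0.747) lay above the others at 7 d, where astrocyte markers (7222 CPM) and oligodendrocyte markers (7504 CPM) were also highest in that library. Igfbp4 in sham replicate 1 (111.6 CPM, gap 0.852) lay above the other sham libraries, where oligodendrocyte markers were at 7069 CPM, against 2795 to 3519 CPM in the other 3. H19 in the same sham library (0.706 CPM, gap 0.845) rested on 12 counts. The part of these markers was not tested.

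The responses of Igf1 and Igfbp3 differed between the times by the test of the difference itself, at 7 d against 2 d, with log2 fold changes of 1.62 for Igf1 and -1.33 for Igfbp3. The members were chosen with these contrasts known, so both are descriptions.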

How the results depend on the processing

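Of the alternatives to the members' log2 fold changes, 520 kept direction and side of the threshold, 63 lost a call, 19 gained one and 25 changed direction. At 2 d against sham 2 members were called, and 0 were with the replicate block, 5 with voom, 6 without both libraries that lay with sham (chosen after seeing the data) and 0 to 5 when 1 library was left out. Calls over all genes were 669, and 315, 2616, 2146 and 76 to 1967 in these settings. At 7 d against sham 3 were called, and 0 were with the block, 1 with the 2 groups compared alone, 1 with voom and 0 to 3 when 1 library was left out. Calls over all genes were 752, and 81, 566, 866 and 119 to 1035. Between the times 2 were called, and 0 were with the block, 0 with the 2 groups alone and 0 to 3 when 1 library was left out. Calls over all genes were 473, and 91, 81 and 173 to 1309. Outside the fits that left out 1 library, counts of members and of all genes moved the same way in these settings, except with voom at 7 d. Under the block, Igf1 at 7 d had an adjusted p of 0.162 and H19 of 0.208. Deviations of samples with the same number had r of -0.44 to 0.28. Samples with different numbers were not compared in this way, so whether the numbers pair the samples is not settled.

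For the 36 pathway genes, 2 d against sham gave 0 calls, and 2 with DESeq2, 1 with 2 groups alone, 7 with voom, 3 without both libraries and 0 to 1 leaving out 1 library. At 7 d it gave 1, and 4 with DESeq2, 0 with the block, 2 with voom, 4 without both libraries and 0 to 3 leaving out 1. Between the times voom gave 1 and leaving out 1 library gave 0. For the 40 imprinted genes, 2 d gave 4 calls, and 7 with DESeq2, 2 with the block, 12 with voom, 12 without both libraries and 0 to 12 leaving out 1. At 7 d it gave 3, and 6 with DESeq2 and 0 to 4 leaving out 1. Between the times it gave 0, and 2 with DESeq2, 1 with voom, 1 without both libraries and 0 to 1 leaving out 1. Calls over all genes moved widely too. At 2 d they were 669, and 1528 with DESeq2, 315 with the block, 807 with 2 groups alone, 2616 with voom and 2146 without both. At 7 d these were 752, 1386, 81, 566, 866 and 1324. Between the times they were 473, 1280, 91, 81, 1237 and 913. Leaving out 1 library gave 76 to 1967, 119 to 1035 and 173 to 1309. In CPM per kilobase of GENCODE M21 exon length, the ratio of binding-protein to ligand RNA was 7.86 at 7 d (4.26 in FPKM), 16.0 at 2 d (11.1 in FPKM) and 5.47 in sham (3.80 in FPKM). The causes were not tested.

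Changes of direction lay near 0, in log2 fold changes of which none was called. At 2 d against sham, Igf1 was 0.0403 with voom and -0.075 to 0.057 leaving out 1 library, Igf1r was -0.00856 with voom and -0.0394 to 0.0969 leaving out 1, and Igf2r was -0.16 to 0.0355 leaving out 1. At 7 d against sham, Igf2 was -0.00772 with the block and -0.11 to 0.57 leaving out 1, Igf1r -0.046 to 0.0721, Igfbp2 -0.13 to 0.37 and Igfbp3 -0.34 to 0.14. Between the times, Igf1r was -0.00819 with no filter on low counts and -0.0713 to 0.0512 leaving out 1. H19 in sham rested on 2 to 12 counts a library, which limits the precision of its fold.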
